A study of Mus musculus with 3 samples.

Results

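The actin cytoskeleton and cell motility genes of mouse T-helper 1 (Th1) cells are described here as a set of 54 genes out of 50600 counted. They were chosen by symbol, as genes that build, cut, branch, cross-link or steer actin filaments, and all 54 were found in the count files. The rule uses no measured value, although the set was proposed with earlier results of these data known. Of the 54 genes, 35 had no exon base in common with a gene on the other strand and 19 had such an overlap, and the groups are given apart.

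RNA was sequenced from primary T-helper 1 cells of the mouse strain C57BL/6NJ in 3 libraries that form 1 group, so the study holds no treatment, no other cell type and no control. Th1 cells, a differentiated state of CD4 T cells, secrete interferon gamma. All libraries carry the same donor record and are numbered as biological replicates 1, 2 and 3, so a spread between them may be technical. Age is given as unknown and sex as not collected, and the file headers name 72 hours and sorted cells. The assay is labelled total RNA, while the linked protocol is named for polyadenylated RNA. Totals were 4482916, 266790 and 3733531 counts in replicates 1, 2 and 3, which makes replicate 2 16.8-fold shallower than replicate 1. All 7 general T-cell markers and all 6 Th1 markers had a mean of at least 10 TPM (a share of the library's transcripts, corrected for gene length). Of 38 markers of other cell types 28 lay below 1 TPM and 18 had no count, and the summed level of the 38 was 232.5, 215.3 and 235 TPM in replicates 1, 2 and 3. The highest of them was the macrophage receptor gene Csf1r (111 ± 25.1 TPM), which has an exon overlap. It was 1 of 5 that reached 10 TPM. The others were Tagln (overlapped, 31.8 ± 9.54 TPM) and, without an overlap, Ighm (23.15 ± 23.17), Myh11 (20.3 ± 9.51) and Cd68 (12.7 ± 5.145). The part of other cell types in the levels below was not tested.

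Each level below is that of fragments whose first read lay on the strand of the gene, the setting recorded in the file headers. Which strand the first read of this kit marks is not given in the sources used here. If it marked the strand opposite to the RNA, a gene's count would be that of fragments antisense to its transcript, and its rank among genes would not be its rank in RNA. Overlapped genes held 51.7%, 55.1% and 66.5% of all counts in replicates 1, 2 and 3. Values for genes that face the actin genes on the other strand are given further down, since they bear on this directly.

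Actin filaments grow from pools of monomer that thymosins and profilin hold ready, and cofilin takes old filaments apart. The Arp2/3 complex, switched on by WASP and WAVE proteins downstream of Cdc42 and Rac, starts branched networks at the leading edge and at the immune synapse, while formins grow straight filaments. Non-muscle myosin II pulls on these filaments at the rear of a moving T cell. Proteins of the ezrin, radixin and moesin family tie them to the membrane, and talin ties them to integrins. Several of these parts are restricted to blood cells, among them Coro1a, Was, Rac2, Dock2 and Lcp1.

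Many actin genes are known targets of serum response factor, which binds a motif called the CArG box. Promoters of the set were therefore searched for this motif on both strands, in RefSeq windows (GRCm38.p6) of 300 bases that run from 250 before to 50 after each transcription start. Windows were found for 47 of the 54 genes, and 4 of the 47 held a CArG box (8.51%), against 488 of 27025 genes with a window (1.81%). The motif is a match of letters, and its occupancy was not measured. The 4 sites are shown because they are the only matches in the set. Each is written 5′ to 3′ on the gene's strand with the box in capitals.
Actg1, minus strand, chr11:120348566-120348595, box starting 90 bases before the start: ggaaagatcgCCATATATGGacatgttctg
Arpc4, plus strand, chr6:113377863-113377882, box starting 250 bases before the start: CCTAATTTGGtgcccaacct
Myl6, minus strand, chr10:128493040-128493069, box starting 50 bases before the start: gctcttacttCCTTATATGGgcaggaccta
Vcl, plus strand, chr14:20929161-20929190, box starting 227 bases before the start: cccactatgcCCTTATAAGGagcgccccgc

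The 4 genes belong to different parts of the machinery: a cytoplasmic actin, an Arp2/3 subunit, a myosin light chain and the adhesion protein vinculin. Their mean levels ran from 15.6 ± 3.54 TPM for Vcl to 274 ± 86 TPM for Actg1. Of the transcription factor axis itself, Srf had 17.5 ± 6.59 TPM, its coactivator gene Mrtfa (overlapped) 9.46 ± 3.66 and Mrtfb (overlapped) 1.27 ± 1.12. The box of Myl6 lies inside the span of the counted gene (128490860 to 128494145), before a RefSeq start that is not the outermost one. Windows of Actb, Cotl1, Diaph1, Lsp1, Rac1, Rac2 and Stmn1 were not searched.

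As a set, the genes stood high. All 54 reached a mean of 1 TPM, a level that 47.8% of protein-coding genes reached, 52 reached 10 TPM (27.3% of protein-coding genes) and 27 reached 100 TPM (4.09%). Their median was 99.2 TPM, against 12.8 TPM for the 10408 protein-coding genes of at least 1 TPM. The 35 genes without an overlap had a median of 109.4 TPM, against 11.3 TPM for the 7040 protein-coding genes of at least 1 TPM without one. The 19 overlapped genes had a median of 85.5 TPM, against 17.2 TPM for 3368 overlapped genes. Among all protein-coding genes, 5 of the 54 lay in the top 1%, 30 in the top 5% and 42 in the top 10%. These are descriptions of genes picked as a known and abundant family, and no test was made of them.

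**Figure D1:**
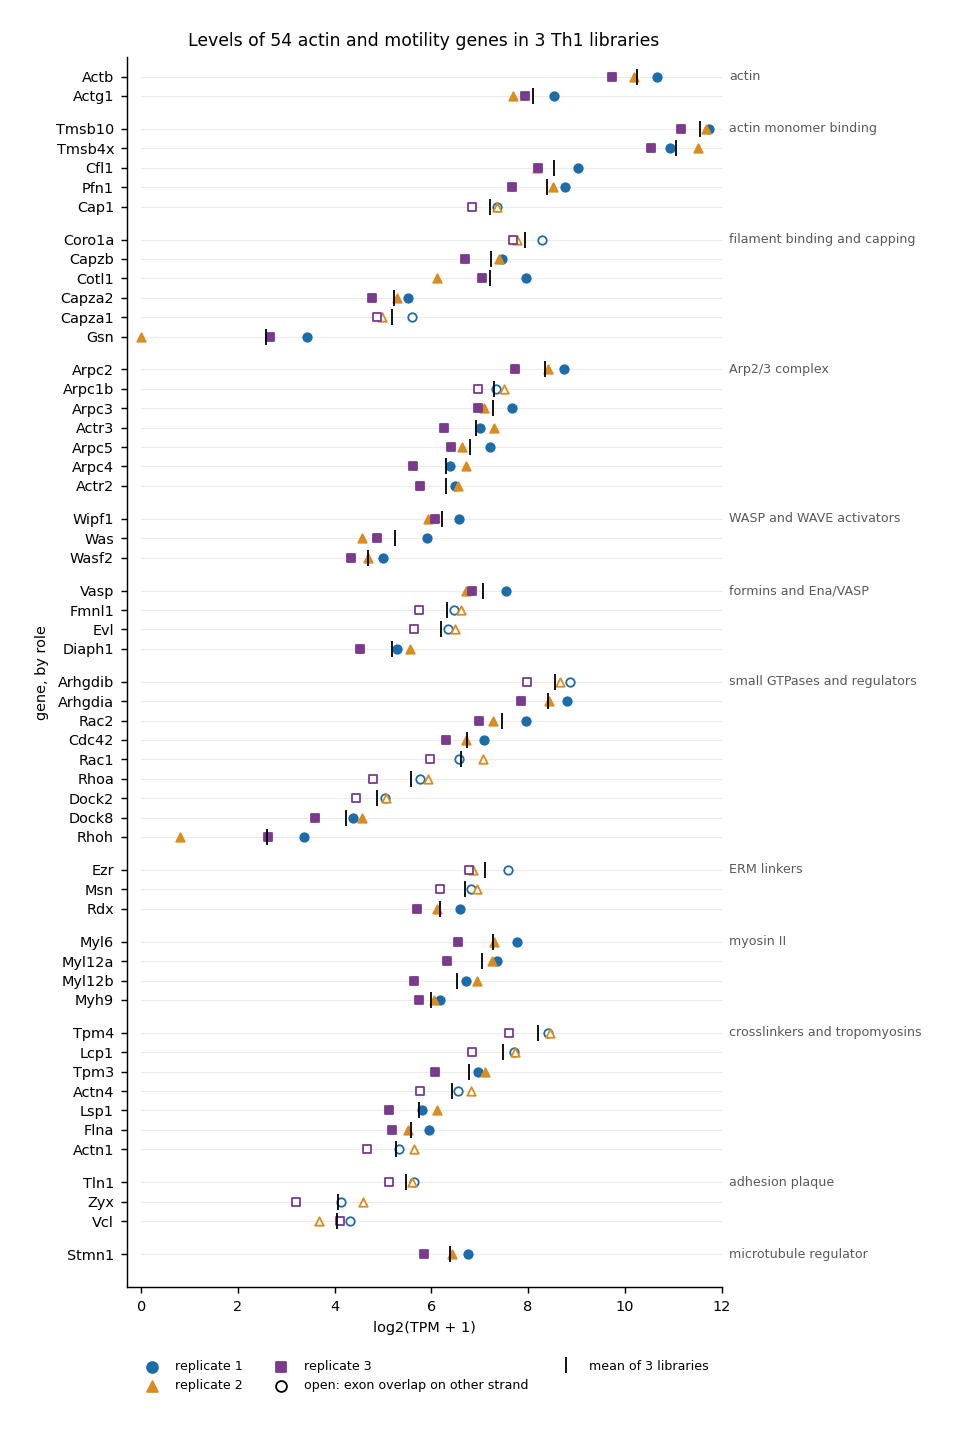
Level of each of the 54 genes as log2(TPM + 1), grouped by role, with 1 symbol per library, a bar at the mean of the 3 libraries, and open symbols for genes with an exon overlap on the other strand. Tmsb10, Tmsb4x and Actb stand to the right of all others, Gsn and Rhoh to the left, and replicate 3 is the lowest symbol for 45 of the 54 genes.

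Gene lengths here are the exon bases of all isoforms, so the order of genes by level depends on them. In the order of levels most neighbours did not differ beyond their spread. Only 2 steps were wider than the SDs of both neighbours added together: the step from Actb down to the next gene, and the step from Vcl down to Rhoh. Together the 54 genes took 1.78% of the counts in replicate 1 (exact Clopper-Pearson 95% interval 1.77% to 1.79%), 1.68% in replicate 2 (1.63% to 1.73%) and 1.25% in replicate 3 (1.24% to 1.26%). Tmsb10, Tmsb4x and Actb alone held 0.532%, 0.549% and 0.396% of the counts. Replicate 3 was thus lowest for the set and for its 3 leading genes together, beyond counting error, which is all these intervals cover. These are shares of all counts, of which overlapped genes held more in replicate 3. Scaled over genes without an overlap alone, Tmsb10 was highest in replicate 3. On that scale Tmsb4x was lowest in replicate 1 and Actb in replicate 2.

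Among the genes without an overlap, the thymosins led. Tmsb10 (chromosome 6, 72957347 to 72958748, minus strand, GRCm38), which binds actin monomers, had 3405, 3287 and 2299 TPM in replicates 1, 2 and 3. Its relative Tmsb4x (chromosome X, 167207093 to 167209315, minus strand) had 1965, 2924 and 1482 TPM. The values of Tmsb10 lay above those of Tmsb4x within each library, although the ranges of the genes over all libraries overlapped.

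Beta-actin, Actb (chromosome 5, 142903115 to 142906754, minus strand), had 1629, 1173 and 854.5 TPM and was the third highest gene of the set. Gamma-actin, Actg1 (chromosome 11, 120345690 to 120348542, minus strand), the other cytoplasmic isoform, had 371, 207 and 244 TPM. Every library of Actb was above every library of Actg1. Of the muscle actins, Acta1, Actc1 and Actg2 had no count in any library and Acta2 had 1 count in all. Per base of exon, Actb was at least 2713-fold higher than Acta1, at least 2857-fold higher than Actc1 and at least 2750-fold higher than Actg2, each bound taken at 3 counts over the group. Against the single count of Acta2 the ratio was 9436, with a 95% counting interval of 1693 to 3.727e+05.

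Profilin 1, Pfn1, which loads monomers onto growing ends, had 434.5, 364 and 201 TPM. Cofilin 1, Cfl1, which severs old filaments, had 525, 289 and 295 TPM. Both were highest in replicate 1, and the means of the 2 genes, 333 ± 120 and 370 ± 134 TPM, did not differ beyond their SDs. That holds at the lengths used, 2405 and 2354 exon bases of all isoforms. Their longest coding transcripts hold 812 and 2305 stretches of 50 bases, so another choice of length would change the comparison. Among the capping and binding proteins, Capzb, the beta subunit that closes barbed ends, had 174, 169 and 103 TPM, and its partner Capza2 44.5, 38.1 and 26.4. Coactosin-like 1, Cotl1, which binds filaments, had 246, 67.9 and 130.5 TPM, a wide spread that came with only 14 counts in replicate 2. Gelsolin, Gsn, a calcium-dependent severing protein, had the lowest mean of the set (4.99 TPM, beside 5.04 for Rhoh), with 9.70 and 5.29 TPM in replicates 1 and 3. In both of these libraries Gsn lay above Rhoh (9.25 and 5.13 TPM). It had no count in replicate 2, where 3 counts equal 7.36 TPM, a value above the 5.29 TPM of replicate 3 and below the 9.70 TPM of replicate 1.

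Of the 7 Arp2/3 genes 6 had no overlap, and these lay between 78.0 and 327 TPM. Arpc2 was the highest, with 429, 339 and 213 TPM. Arpc3 followed with 201, 134.5 and 123, Actr3 with 127, 155 and 76.1, and Arpc5 with 148, 98.6 and 83.7. Actr2 (78.0 ± 21.5 TPM) and Arpc4 (78.3 ± 27.8 TPM), the latter with the CArG box at the edge of its window, were level with each other in TPM. Subunits of the complex occur in equal number in the protein, while the mean levels of these RNAs spanned more than their SDs, from Actr2 to Arpc2.

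The activators of the complex were lower. Was, the WASP protein of blood cells, had 59.2, 22.8 and 28.2 TPM, Wipf1, which binds and stabilises WASP, had 94.2, 60.4 and 66.1, and the WAVE gene Wasf2 had 30.8, 24.7 and 19.1. All 3 were highest in replicate 1. Of the filament elongators without an overlap, Vasp had 185, 103.5 and 114 TPM and the formin gene Diaph1 38.0, 46.4 and 22. The order of these 2 was the same in each library.

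Small GTPases switch these machines on. Rac2, the form of Rac in blood cells, had 247, 153 and 126 TPM, and Cdc42, which binds WASP, had 134, 104 and 78.5. Rhoh, a GTPase of blood cells that does not hydrolyse GTP, had 9.25, 0.748 and 5.13 TPM and rested on 1 count in replicate 2. Arhgdia, a chaperone that holds such GTPases in the cytosol, had 449, 343 and 230 TPM. Dock8, an exchange factor for Cdc42, was near the bottom of the set with 19.8, 22.8 and 11.1 TPM. Thus the chaperone was the highest of the 5 in each library and the exchange factor lay above Rhoh alone.

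Of the membrane linkers only radixin, Rdx, had no overlap, with 96.0, 68.4 and 51.2 TPM. The 4 myosin II genes all lacked one. Myosin heavy chain 9, Myh9, had 71.5, 65.2 and 52.3 TPM, the smallest relative spread of the set (coefficient of variation 15.6%). The essential light chain gene Myl6 had 216, 155 and 92.8 TPM, and the regulatory light chain genes Myl12a and Myl12b had means of 132 ± 46.4 and 91.8 ± 38.1 TPM. Each light chain was above the heavy chain in replicates 1 and 2, and Myl12b was below it in replicate 3, at 49.1 TPM. Crosslinkers without an overlap were filamin A, Flna (60.9, 44.5 and 35.6 TPM), the leukocyte protein gene Lsp1 (55.1, 68.8 and 33.9) and the tropomyosin gene Tpm3 (124, 137 and 66.8). Stathmin, Stmn1, which binds tubulin rather than actin, had 106.5, 84.6 and 56.2 TPM.

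Some of these levels are uncertain because the exons resemble copies elsewhere in the genome. The share of stretches of 50 bases also found in a gene at another place was 73.8% for Capza1 (most with Gm3608), 62.4% for Tpm3 (Tpm3-rs7), 55.9% for Actg1 (Gm12715), 49.8% for Actr3 (Gm8822), 43.5% for Tmsb10 (Gm9844) and 34.7% for Stmn1 (Gm11223). The remaining 48 genes had at most 18.5%. A fragment that fits several places can be lost or placed at the copy, so the level of such a gene can be too low or hold fragments of the copy.

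The related forms of each protein were then set against each other within the libraries, as log2 ratios of TPM + 1. Of 25 pairs 22 had the same sign in every library. With 3 libraries the exact sign-flip permutation test, two-sided, cannot go below 0.25, so none could pass, and the smallest value after Benjamini-Hochberg adjustment over the 25 pairs was 0.284. Ratios are therefore given with their SD over libraries.

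**Figure D2:**
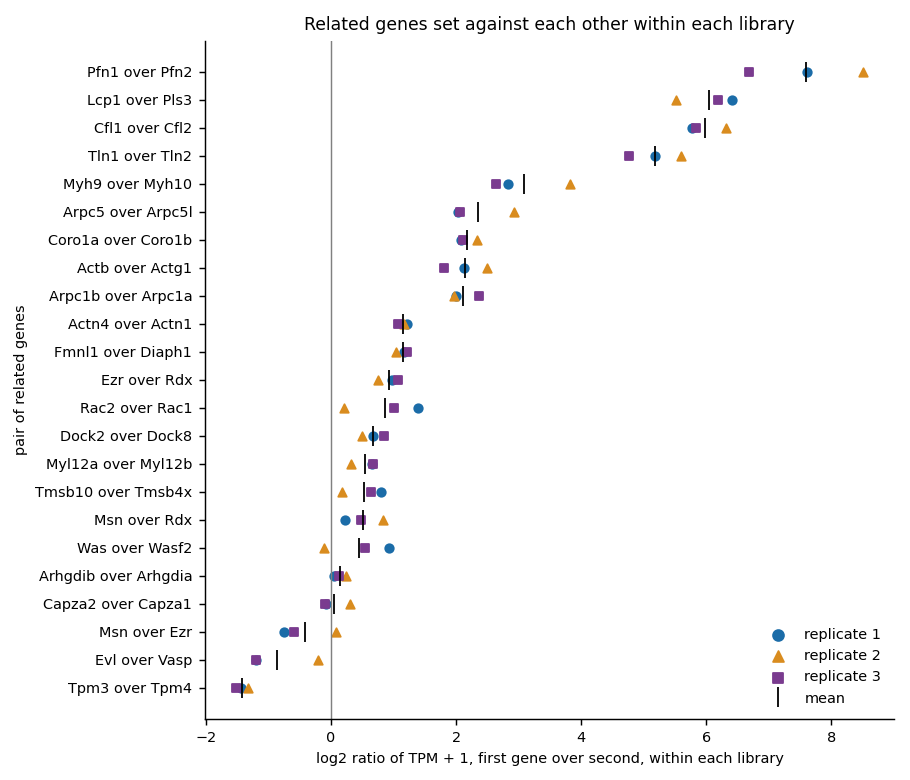
Log2 ratio of TPM + 1 of the first gene over the second within each library, for 23 pairs, with 1 symbol per library and a bar at the mean. The Pfn1, Lcp1, Cfl1 and Tln1 pairs lie farthest to the right, and symbols fall on both sides of 0 for Was over Wasf2, Capza2 over Capza1 and Msn over Ezr.

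Beside Actb over Acta2 (10.09 ± 0.65, with 1 count for Acta2, not plotted), the widest gaps were between forms known from blood cells or from most tissues and forms known from muscle, nerve or other tissues. Pfn1 exceeded Pfn2 by 7.60 ± 0.91 on the log2 scale, the bundling protein gene Lcp1 (overlapped) exceeded Pls3 by 6.04 ± 0.46, Cfl1 exceeded Cfl2 by 5.98 ± 0.30, and talin 1, Tln1 (overlapped), exceeded Tln2 by 5.19 ± 0.41. The low partners had 9, 0 and 7 counts (Pfn2), 13, 2 and 5 (Pls3), 53, 1 and 25 (Cfl2) and 14, 0 and 10 (Tln2), so the size of these ratios is imprecise. Next came Myh9 over Myh10 (3.09 ± 0.64), Arpc5 over Arpc5l (2.34 ± 0.51; Arpc5l overlapped), Coro1a (overlapped) over Coro1b (2.17 ± 0.14), Actb over Actg1 (2.15 ± 0.35; Actg1 uncertain for its copies) and Arpc1b over Arpc1a (2.11 ± 0.22; both overlapped). In each of these 9 plotted pairs the gap was over 3 times its SD, and all 3 libraries had the same order.

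Smaller differences were found inside families whose members are co-expressed. Rac2 exceeded Rac1 (overlapped) in all libraries, by 1.38, 0.21 and 1.01, a mean of 0.87 ± 0.60. Fmnl1 (overlapped), a formin of blood cells, exceeded Diaph1 by 1.15 ± 0.09, and Actn4 exceeded Actn1 (both overlapped) by 1.15 ± 0.07. Vasp exceeded Evl (overlapped), the ratio of Evl over Vasp being -0.87 ± 0.57, and Tpm4 (overlapped) exceeded Tpm3, the ratio of Tpm3 over Tpm4 being -1.43 ± 0.09. Tpm3 is uncertain for its copies, and without the length correction that ratio was 0.025. Ezr (overlapped) exceeded Rdx by 0.93 ± 0.17. No order held over all libraries for Msn over Ezr (both overlapped; -0.42 ± 0.44), Capza2 over Capza1 (the latter overlapped; 0.04 ± 0.23) or Was over Wasf2 (0.45 ± 0.53).

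Beyond the set, 118 further genes of the same pathways were looked up, a list that holds paralogs, kinases and partners. Of these 89 reached 1 TPM, 62 reached 10 and 6 reached 100, with a median of 10.7 TPM. The highest was Hcls1, the cortactin relative of blood cells, at 160 ± 42.8 TPM. It was followed by the integrin-linked kinase gene Ilk (overlapped, 145 ± 1.83), Spn, the gene of the cell-surface sialoprotein CD43 (129 ± 30.9), the kindlin gene Fermt3 (overlapped, 112 ± 60.6), Rap1b, a GTPase that turns integrins on (111 ± 42.0), and Rhoq (overlapped, 103 ± 6.29). The capping gene Capg had 80.8 ± 16.8 TPM, Arhgap45 66.6 ± 17.6, the WAVE complex gene Nckap1l 62.5 ± 29.1 and the exchange factor gene Arhgef1 59.9 ± 14.6.

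No count was found in any library for 15 of the 118 genes. They were the muscle and smooth muscle genes Acta1, Actc1, Actg2 and Myl9, the neuronal stathmins Stmn2 and Stmn3, and Wipf3, Wasf3, Cap2, Tmsb15a, Myh14, Dock1, Pls1, Fermt2 and Parvb. A count of 0 over the 3 libraries allows up to 3 counts, which for these 15 genes is between 0.0755 and 1.25 TPM. Several of them belong to families with another member well above that limit, such as Dock2 and Dock8 beside Dock1, Fermt3 beside Fermt2, Lcp1 beside Pls1, and Stmn1 beside Stmn2 and Stmn3.

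The 19 overlapped genes ranged from 15.6 ± 3.54 TPM for Vcl to 373 ± 110 TPM for Arhgdib (chromosome 6, 136923655 to 136941899, minus strand), the GTPase chaperone of blood cells, which had 465, 403.5 and 251 TPM. Coro1a, a filament-binding protein of blood cells, had 311, 217 and 204 TPM, Tpm4 340, 348 and 193, and the bundling protein L-plastin, Lcp1, 209, 212.5 and 114. For Coro1a the overlap was 26 exon bases, for Tpm4 134 and for Lcp1 530. In TPM, replicate 3 was lowest for these 4 genes and for 18 of the 19, beside 64.6% of the 5939 protein-coding genes of at least 10 TPM. With the scaling between libraries used further down, Coro1a was lowest in replicate 2.

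Rac1, which drives lamellipodia, had 94.0, 133 and 62.0 TPM, and Rhoa, which activates myosin through its kinases, had 53.3, 59.9 and 26.9. The Rac exchange factor gene Dock2 had 32.1, 32.5 and 20.9 TPM. Moesin, Msn, had 112.5, 122 and 71.8 TPM and ezrin, Ezr, 190, 115 and 109. Cap1, which recycles monomers, had 164, 164 and 114 TPM, and Arpc1b, an Arp2/3 subunit, 161, 180 and 124.5. The adhesion genes had the lowest median of the 12 roles, with Tln1 at 48.8, 47.4 and 33.6 TPM, Vcl at 18.8, 11.8 and 16.2, and zyxin, Zyx, at 16.5, 23.0 and 8.20. The other overlapped genes, Capza1, Fmnl1, Evl, Actn1 and Actn4, had means between 35.4 and 85.5 TPM.

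On the other strand these 19 genes faced 22 genes, 19 of which had a mean of at least 10 counts. Of the 19 facing genes with enough counts, 8 had more counts than the actin gene in every library, 6 had fewer in every library and 5 were mixed. Pde6h, known as a phosphodiesterase subunit of cone photoreceptors, shares 136 exon bases with Arhgdib and had 8170, 439 and 11928 counts, against 1659, 89 and 874 for Arhgdib. Gm37401, of which 93.4% (324 bases) lies opposite to exons of Rhoa, had 1935, 256 and 3329 counts against 835, 58 and 410 for all exons of Rhoa. Per length these were 2667, 5710 and 4711 TPM for Gm37401, far above the 26.9 to 59.9 TPM of Rhoa. At both places the facing strand held more counts than the actin gene in each library. Whether the strand setting fits the kit was not tested.

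Rac1 shared the most with its neighbour, since 2309 bases (51.4%) of its exons lie opposite to Daglb. Daglb had 2296, 214 and 3848 counts against 884, 77 and 568 for Rac1. Vcl shared 2087 bases (39.9%) with Ap3m1, which had 775, 96 and 902 counts against 206, 8 and 173. Degs2 facing Evl, Gm26586 facing Tpm4, St7l facing Capza1 and Gm20511 facing Fmnl1 were the others above their partner in each library. At the opposite end, Tcta facing Rhoa over 32 bases had 25, 0 and 9 counts, and Sytl3, which shares 2 bases with Ezr, had 62, 3 and 24. Both of these overlaps are short, and whether an overlap goes with a high count on the facing gene was not tested. The noncoding gene 4930403D09Rik, with 72.4% of its exons opposite to Dock2, had 3, 0 and 6 counts.

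**Figure D3:**
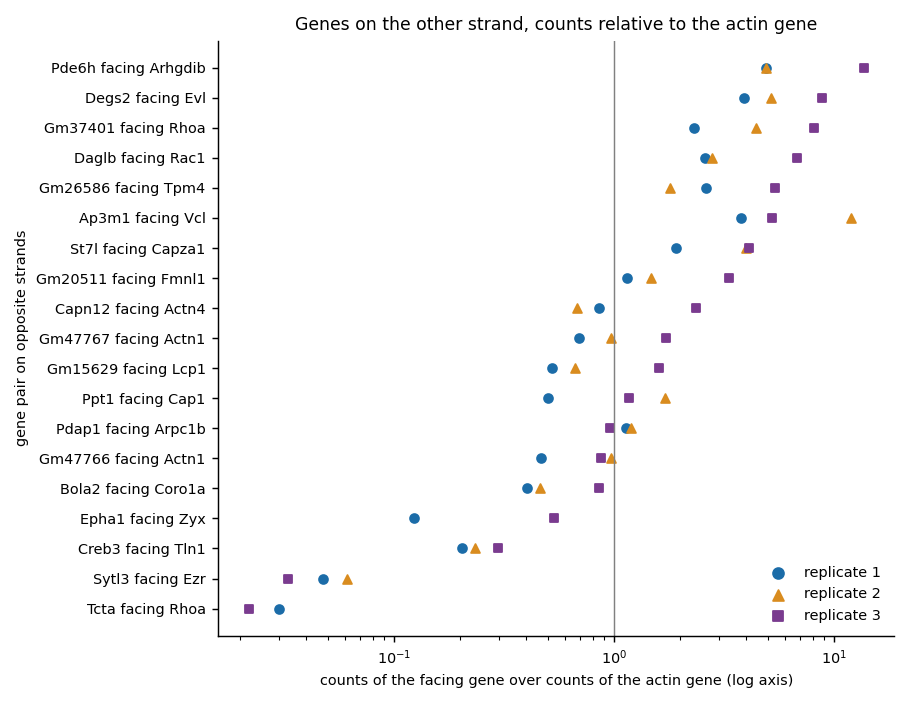
Counts of each facing gene divided by counts of the actin gene on the other strand, on a log axis, with 1 symbol per library and a line at equal counts, for the 19 facing genes with a mean of at least 10 counts. Points for Epha1 and Tcta in replicate 2 are missing because the facing gene had no count there, and replicate 3 gave the highest ratio for 13 of the 19 genes.

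The balance between strands differed by library. The median ratio of facing over actin gene counts was 0.851 in replicate 1, 1.20 in replicate 2 and 1.72 in replicate 3. It was higher in replicate 3 than in replicate 1 for 16 of the 19 facing genes, with a median change of 2.28-fold. The exceptions were Pdap1 facing Arpc1b, Tcta facing Rhoa and Sytl3 facing Ezr. These ratios set whole genes side by side that mostly share a small part of their exons, and the reason for the change was not tested.

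Variation between libraries was then examined gene by gene, with a chi-square test of the counts in which scaling by the trimmed mean of M-values (TMM) set the expected shares. A gene was called at a Benjamini-Hochberg adjusted p under 0.05 over all genes tested with its highest library at least 2 times its lowest. This compares the 3 libraries and holds counting error only. Of the 54 genes 4 were called (7.41%), against 32.2% of the 11595 genes tested. Without an overlap 3 of 35 were called (24.7% of all such genes), and with one 1 of 19 (43.3%). Scaled over genes without an overlap alone, 3 of the 35 were called as well (17.3% of those genes). The median ratio of highest to lowest library was 1.47 for the 54 genes and 1.78 for all genes tested. By the adjusted p alone, without the ratio, 43 of the 54 genes passed, against 55.5% of all genes tested. Without an overlap these were 32 of 35 (46.9% of all such genes), and with one 11 of 19 (68.3%). Scaled over genes without an overlap alone, 20 of the 35 passed (26.4% of those genes). By the adjusted p alone the genes without an overlap thus passed more often than all such genes, and the overlapped genes less often. With the ratio also required, both groups were called less often.

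The 3 called genes without an overlap were Cotl1, Was and Rhoh, all highest in replicate 1 and lowest in replicate 2. Cotl1 had 820, 14 and 424 counts (ratio 3.54, adjusted p = 3.47e-10 by the chi-square test). Was had 295, 7 and 137 counts (ratio 2.55), and Rhoh 200, 1 and 108 (ratio 4.03). Each call rested on the shallow library, since without replicate 2 none of the 54 genes was called (14.9% of all genes tested). Zyx, the overlapped gene called, had 186, 16 and 90 counts, highest in replicate 2 and lowest in replicate 3 (ratio 2.06). Leaving out replicate 1 gave 3 called genes (18.0% of all) and leaving out replicate 3 gave 2 (11.8%).

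Smaller shifts were then described over the set. Relative to the mean of the other libraries, the median gene of the 54 was displaced by 0.20 in replicate 1, 0.03 in replicate 2 and -0.24 in replicate 3, in log2 of the TMM-scaled rate. In replicate 1 the rate was higher than in the others for 45 of the 54, beside 6817 of the 11595 genes tested. In replicate 3 it was lower for 39 of the 54, beside 5270 of the 11595. All genes tested had medians of 0.14, -0.22 and 0.10. With scaling by library totals the medians of the set were 0.31, 0.18 and -0.50 and those of all genes 0.25, -0.08 and -0.16, so the set stayed below all genes in replicate 3 while the direction of all genes there changed.

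**Figure D4:**
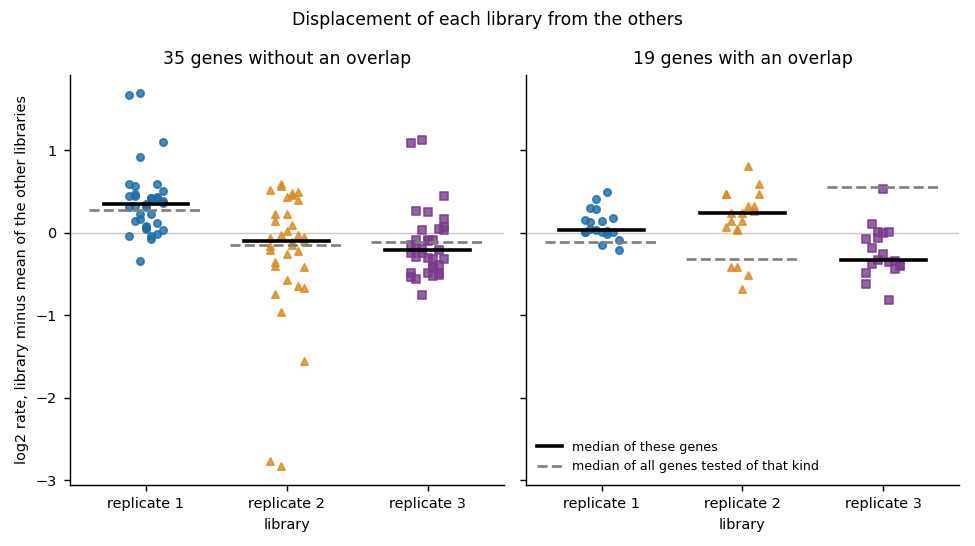
Displacement of each gene in each library from the mean of the other libraries, in log2 of the TMM-scaled rate, for the 35 genes without an overlap on the left and the 19 with an overlap on the right, with solid lines at their medians and dashed lines at the medians of all genes tested of the same kind. In replicate 3 the overlapped actin genes have a median of -0.33 and all overlapped genes 0.56.

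The split by overlap showed where the set parted from other genes. The 35 genes without an overlap had medians of 0.35, -0.10 and -0.21, beside 0.28, -0.15 and -0.11 for all genes tested without an overlap. The 19 overlapped genes had 0.03, 0.24 and -0.33, beside -0.11, -0.31 and 0.56 for all overlapped genes. The genes facing them had -0.66, 0.00 and 0.68, so in replicates 1 and 3 the facing genes had the sign of overlapped genes at large and the actin genes the opposite sign. In TPM, replicate 3 was the lowest library for 45 of the 54 genes (83.3%) and for 64.6% of the 5939 protein-coding genes of at least 10 TPM. Overlapped genes also held a larger share of the counts in replicate 3, 66.5%, and TPM is a share of each library's total. How far this bears on the low TPM there was not tested, and the levels above are not corrected for it.

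Scaled over genes without an overlap alone, the displacement of the 35 genes was 0.22, -0.19 and 0.00 and that of all such genes 0.15, -0.24 and 0.10. On this scale replicate 3 was lowest for 15 of the 35, and 39.7% of the 3762 protein-coding genes of at least 10 TPM without an overlap were lowest there. Between the deep libraries alone, again scaled over genes without an overlap, the 35 genes had a median log2 ratio of replicate 3 over replicate 1 of -0.12, against -0.06 for 7414 genes, and 27 of the 35 were lower in replicate 3, beside 4243 of the 7414. An adjusted p under 0.05 was reached by 13 of the 35 (37.1%), against 12.9% of all such genes, and none reached a ratio of 2 (5.15% of all). The part of count depth in this share was not tested.

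The genes furthest down in replicate 3 were the myosin light chain genes Myl6 (-0.52), Myl12b (-0.38) and Myl12a (-0.36), Pfn1 (-0.41) and Was (-0.36). Of these, Was did not reach an adjusted p under 0.05. On this scale myosin heavy chain, Myh9, had 0.25, Tmsb4x 0.30, Wipf1 0.19 and Tmsb10 0.14. Scaled by TMM over all genes these 4 had 0.02, 0.06, -0.04 and -0.10, so their direction depends on the scaling. That change of scale moved all genes down alike. The 5 lower genes could therefore only stay lower, between -0.59 (Myl12a) and -0.75 (Myl6), and this adds no support. On genes without an overlap all of these differences were below 1.5-fold, with 1 library on each side.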

How the data were processed

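Each deposited file gave the raw fragment count of every gene in 1 library. Per the file headers, the authors made them with featureCounts 1.4.6-p4 on mm10 with GENCODE mouse release 13, counting paired fragments with both ends mapped over exons at strand setting 1. The aligner is not given in the sources used here. Lengths in the files are the exon bases of all isoforms, so a level set against that of another gene depends on this choice.

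Symbols came from GENCODE mouse release 21 on GRCm38, which matched 50376 of the 50600 identifiers and left 224 without a name. TPM was computed from the deposited counts and lengths. An overlap was at least 1 exon base shared with an exon on the other strand. A gene entered the chi-square test at a mean count of at least 10, with library sizes scaled by TMM (edgeR 4.0.16) and the lowest library set to at least 3 counts. With 1 group there was no contrast, so edgeR's test was not used. Copies made by PCR are not separate molecules, so the intervals and floors hold only counting error. The chi-square procedure was also run on simulated counts that held counting error only, with changes planted in replicate 3 alone. That setting does not cover further spread between libraries or the calls that rested on the shallow replicate 2.

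The genes, pathway lists, markers and pairs were chosen with earlier results of these data known. Beside the 54 genes, the text names genes of the pairs, the 10 further pathway genes with the highest mean TPM, those with no count and genes facing a member. Srf, Mrtfa, Mrtfb and the markers Csf1r, Tagln, Ighm, Myh11 and Cd68 were named outside that rule, after their values were seen. Alternatives changed the scaling (DESeq2 1.42.0 size factors, library totals, genes without an overlap), the length correction, the pseudocount, the count and ratio minimums, and left out each replicate. A result of 1 pair is not reported here.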

Additional observations from a re-analysis of the deposited data

How the results depend on the processing

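Leaving out the length correction reversed the order of 4 pairs on the log2 scale: Msn over Ezr became 0.519, Arhgdib over Arhgdia -0.265, Tpm3 over Tpm4 0.025 and Was over Wasf2 -0.913. Capza2 over Capza1 became -0.093 without replicate 2 and 0.108 without replicate 3. The other 170 pair values under the alternatives kept their direction. For the 22 pairs with the same sign in every library, only leaving out the length correction could reverse it. Their direction under the other alternatives was fixed in advance. The median of the set was 99.2 TPM, 292 TPM scaled over genes without an overlap and 208.1 CPM when TMM-scaled without length. Of 324 alternative means of single genes, 92 moved by more than their SD. All 92 came from a change of scale, either over genes without an overlap or to CPM without length. Leaving out 1 replicate or taking the median over libraries cannot move a mean beyond its SD, so this count does not measure robustness.

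The 4 genes called between libraries became 0 to 3 when 1 replicate was left out, 0 on genes without an overlap and without replicate 2, and 23 at a ratio of at least 1.5 (47.8% of all genes tested). DESeq2 size factors gave 4 (31.9%), library totals 5 (35.4%) and a mean count of at least 100 gave 3 (34.1%). Over all genes the calls fell from 3731 to 1941 without replicate 1, 1824 without replicate 2 and 1332 without replicate 3, and were 1201 on genes without an overlap and 382 on these without replicate 2. The cause was not tested. The displacement of the set in replicate 2 changed sign, to -0.130 without replicate 3. No paired analysis was possible because there is only 1 group. Depth limits replicate 2, where 44 of the 54 genes had fewer than 100 counts and 4 fewer than 10.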

Other observations

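Myh11, the myosin heavy chain of smooth muscle, had 433, 12 and 211 counts in replicates 1, 2 and 3, a mean of 20.3 ± 9.51 TPM, and was picked out after its values were seen. It exceeded Myh10 (201, 5 and 162 counts, 6.83 ± 2.83 TPM). Of the other 6 smooth muscle and stroma markers Tagln (overlapped) had 107, 11 and 109 counts (31.8 ± 9.54 TPM), and Col1a1, Col1a2, Cnn1, Des and Pdgfrb had at most 3 counts in any library. Myl9 and Actg2 had no count and Acta2 had 1. Exons of Myh11 share no base with a gene on the other strand, but Nde1 lies on that strand at a gap of 1598 bases and had 450, 33 and 213 counts. Whether the counts of Myh11 come from its own transcript was not tested.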
